A study of Mus musculus with 108 samples.

Results

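Transcripts of 10 growth factor receptor tyrosine kinases were followed in individual cells from 4 cultures of the mouse germline. The genes were the 4 fibroblast growth factor (FGF) receptors Fgfr1, Fgfr2, Fgfr3 and Fgfr4, the epidermal growth factor (EGF) receptor family members Egfr, Erbb2 and Erbb3, the insulin-like growth factor receptor Igf1r, the insulin receptor Insr and the platelet-derived growth factor (PDGF) receptor Pdgfra. They were taken by gene symbol, and all 10 had a row among the 26218 genes of the table. GSCLCs are cells resembling germline stem cells that were obtained by way of reconstituted testes, and GSCs are germline stem cells, the cultured form of spermatogonial stem cells. GSCLC4 (24 cells) was derived by way of reconstituted testes after 3 weeks at 34 °C, GSC2 (24 cells) came from testes of postnatal day 7, and the sources used here do not state where GSCLC1 (30 cells) and GSC1 (30 cells) came from. All 4 lines had the 129/SvJcl x C57BL/6 background and the AcrAct_EGFP reporter. Every line was fed the same serum-containing medium with human basic FGF (bFGF, 10 ng/ml), rat glial cell line-derived neurotrophic factor (GDNF, 10 ng/ml), mouse EGF, leukemia inhibitory factor (LIF) and an insulin-containing supplement. Each line was 1 culture, so its cells were not replicates, and the line was the unit of every test.

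Receptor tyrosine kinases span the membrane, bind a growth factor outside the cell and phosphorylate tyrosines inside it, where adaptor proteins dock and pass the signal to the RAS-MAP kinase and PI3 kinase pathways. FGF receptors bind FGFs together with heparan sulfate. ERBB3 has little kinase activity of its own and signals in dimers with partners such as ERBB2, which itself has no known soluble ligand. In spermatogonial stem cell culture, GDNF acts through the receptor kinase RET and its co-receptor GFRA1, and FGF2 (bFGF) supports GDNF-dependent growth.

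Expression was measured by SC3-seq, which amplifies and sequences 3′ ends of polyadenylated RNA from individual cells, and is given as RPM (reads scaled by the authors to the size of each library). Because reads come from the 3′ end, RPM was not divided by transcript length, and splice forms that share a 3′ end, such as the ligand-binding isoforms of the FGF receptors, were not told apart. Estimated depth ran from 2.00 M to 6.04 M reads per cell, with line medians of 3.26 M in GSCLC4, 3.19 M in GSCLC1, 4.30 M in GSC2 and 3.71 M in GSC1. GSCLC4 also had the highest median number of detected genes (9866, against 8607 in GSCLC1, 9181.5 in GSC2 and 8791 in GSC1). All 12 germ cell markers were detected in every line, and their summed mean was 5837 RPM in GSCLC4, 5978 RPM in GSCLC1, 5701 RPM in GSC2 and 5427 RPM in GSC1. The sum of 16 fibroblast and feeder cell markers averaged 360 RPM in GSCLC4, 211 RPM in GSCLC1, 298 RPM in GSC2 and 1726 RPM in GSC1. A GSC1 cell with 5748 detected genes held 39341 RPM of those markers, no other cell more than 2743 RPM, and the GSC1 average was 429 RPM without it. That cell had 51.1 RPM of Fgfr1 and 0 RPM of each of the other 9 receptors, and receptor results that rest on GSC1 were repeated without it. The sum of 8 Sertoli cell markers averaged 96.4 RPM in GSCLC4, 29.6 RPM in GSCLC1, 6.60 RPM in GSC2 and 34.2 RPM in GSC1. That of 8 Leydig and peritubular cell markers averaged 5.62, 13.2, 10.5 and 313 RPM in the same order, and 33.9 RPM in GSC1 without that cell.

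At 5 RPM or more the receptors fell into a few found in most cells and several found in few cells. Igf1r was at 5 RPM or more in 94 cells of all lines (87.0%), Fgfr1 in 82 (75.9%) and Erbb3 in 54 (50%). Erbb2 reached this level in 30 cells, Pdgfra in 25 and Fgfr3 in 20. Insr did so in 8 cells, Fgfr2 in 5, Egfr in 3 and Fgfr4 in none, since the 2 cells with any Fgfr4 stayed below it. A level of 5 RPM was used for shares of cells because it lay above the worth of 1 read in every cell. Cells below it did not all lack the transcript: some Erbb3 was read in 76 cells, Fgfr3 in 62 and Erbb2 in 49.

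**Figure D1:**
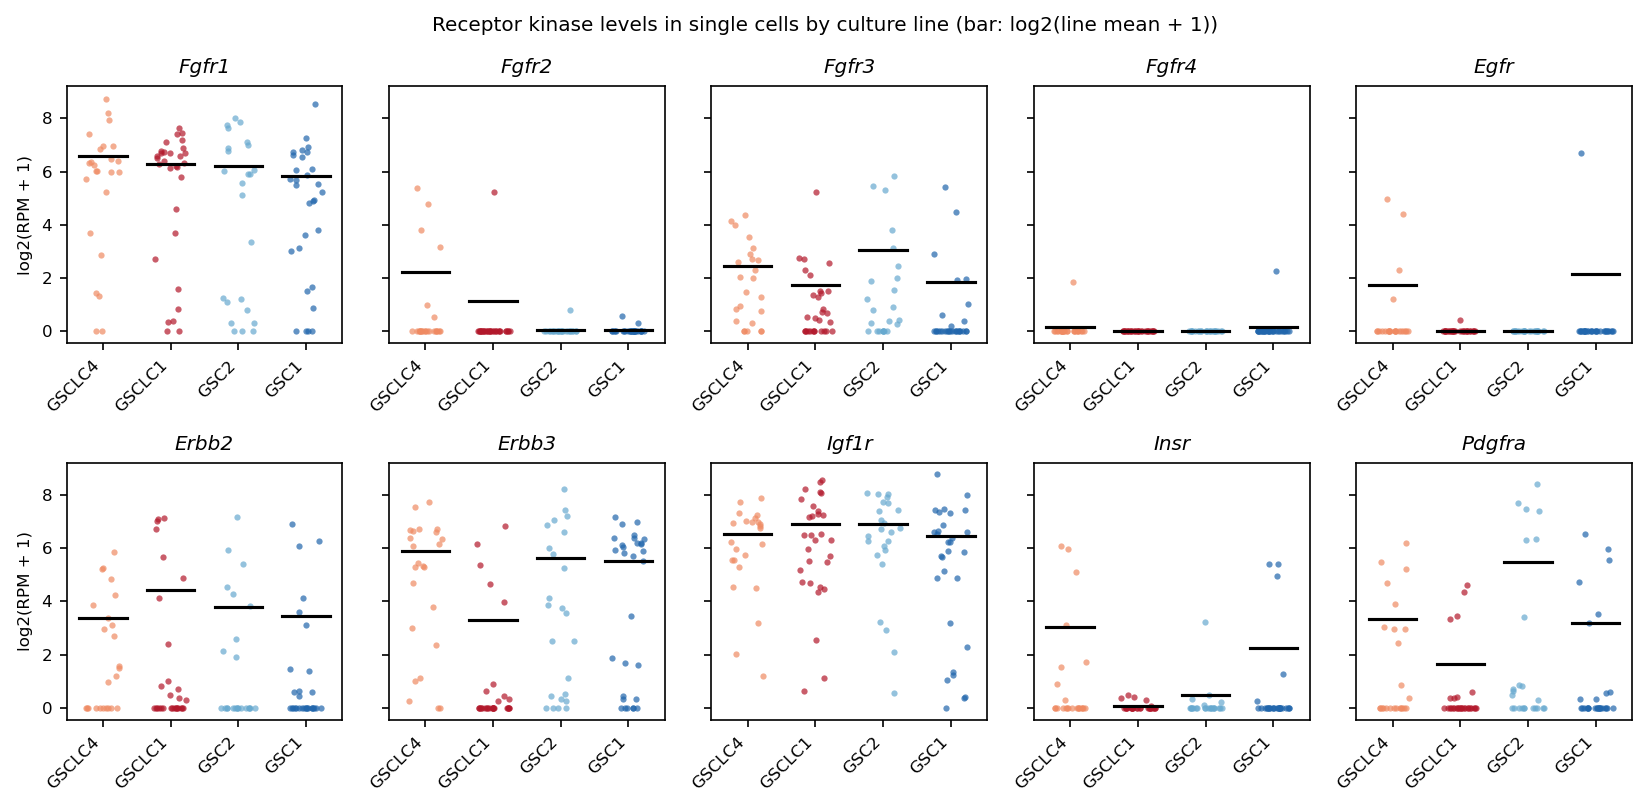
Level of each receptor in single cells, as log2(RPM + 1), by culture line from left to right GSCLC4, GSCLC1, GSC2 and GSC1. Each point is 1 cell (24, 30, 24 and 30 cells) and the black bar is the line mean in RPM on the same scale; Igf1r and Fgfr1 were high in most cells of every line, and Fgfr4 was at 0 in all but 2 cells.

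Sequence around the annotated start is shown for the receptors with the highest and the lowest mean RPM, Igf1r (102.9 RPM over the 4 line means) and Fgfr4 (0.058 RPM). Both windows are from RefSeq on GRCm38.p6, plus strand, 250 bases before and 50 after the start, in lower case with each CG dinucleotide in capitals. The Igf1r window is chr7:67952007-67952306 and the Fgfr4 window is chr13:55152568-55152867.
Igf1r: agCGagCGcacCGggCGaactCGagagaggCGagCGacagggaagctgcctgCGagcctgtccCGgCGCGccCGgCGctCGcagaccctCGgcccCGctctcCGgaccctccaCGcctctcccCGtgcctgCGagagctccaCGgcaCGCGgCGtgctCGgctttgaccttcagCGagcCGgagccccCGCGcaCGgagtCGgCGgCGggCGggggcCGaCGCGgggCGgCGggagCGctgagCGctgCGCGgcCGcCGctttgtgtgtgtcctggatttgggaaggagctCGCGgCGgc
Fgfr4: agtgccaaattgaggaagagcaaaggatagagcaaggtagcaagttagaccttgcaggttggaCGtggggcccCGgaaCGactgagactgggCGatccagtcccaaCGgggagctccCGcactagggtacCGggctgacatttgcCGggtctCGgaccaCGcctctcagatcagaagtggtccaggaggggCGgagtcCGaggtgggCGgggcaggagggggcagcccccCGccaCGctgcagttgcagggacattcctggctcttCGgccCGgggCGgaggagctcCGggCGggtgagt
The Igf1r window held 48 CG dinucleotides (76% G and C) and the Fgfr4 window 20 (65.3% G and C). Across 32851 windows of the same length the median was 7, at least 1 CG was found in 94.6% of them, and 98.8% held fewer than Igf1r and 73.5% fewer than Fgfr4. In the windows of the other matched receptors there were 4 CG dinucleotides for Fgfr2, 26 and 30 for the 2 annotated starts of Fgfr3, 15 for Egfr, 21 for Erbb2 and 5 for Pdgfra, and the order of these counts was not that of the RPM levels. In all, 7 of the 10 receptors were matched, with 8 windows, and Fgfr1, Erbb3 and Insr were not. CG counts describe the sequence only.

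Fgfr1 (chr8:25518759-25575718, Entrez 14182) supplied nearly all FGF receptor reads in every line. The range and median of its level were 0 to 418 RPM and 69.3 RPM in GSCLC4, 0 to 199 RPM and 81.7 RPM in GSCLC1, 0 to 257 RPM and 52.9 RPM in GSC2, and 0 to 366 RPM and 40.3 RPM in GSC1. The cells of the 4 lines overlapped widely. Line means were 93.9 RPM in GSCLC4, 76.5 RPM in GSCLC1, 72.3 RPM in GSC2 and 56.5 RPM in GSC1, so that both GSCLC means lay above both GSC means, while the SD over cells (100.7, 57.2, 83.1 and 72.7 RPM in the same order) exceeded every step between them. Fgfr1 reached 5 RPM in 20 of 24 GSCLC4 cells (83.3%), 24 of 30 GSCLC1 cells (80%), 15 of 24 GSC2 cells (62.5%) and 23 of 30 GSC1 cells (76.7%). Exact 95% intervals for these shares, which cover counting of cells only, ran from 62.6% to 95.3%, 61.4% to 92.3%, 40.6% to 81.2% and 57.7% to 90.1% in the same order, and all overlapped. Of the summed RPM of the 4 FGF receptors, Fgfr1 made up 91.8% in GSCLC4, 95.5% in GSCLC1, 90.9% in GSC2 and 95.4% in GSC1.

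Fgfr3 (chr5:33721724-33737068, Entrez 14184), a receptor best known as a brake on bone growth, was widespread at low level. Its line means were 4.53 RPM in GSCLC4, 2.38 RPM in GSCLC1, 7.24 RPM in GSC2 and 2.60 RPM in GSC1, with highest cells at 19.8 RPM, 36.1 RPM, 55.3 RPM and 42.3 RPM. Some Fgfr3 was read in 19, 18, 16 and 9 cells of these lines, but only 9, 3, 5 and 3 cells reached 5 RPM. A single cell supplied 18.2% of the Fgfr3 sum in GSCLC4, 50.5% in GSCLC1, 31.8% in GSC2 and 54.3% in GSC1.

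Fgfr2 (chr7:130162451-130266808, Entrez 14183), which with its epithelial isoform receives FGFs made by mesenchyme, was found at 5 RPM or more in GSCLC cells alone among the cells measured. There were 4 such cells in GSCLC4 (16.7%) and 1 in GSCLC1 (3.33%), against 0 of 24 in GSC2, which allows a share of up to 12.5%, and 0 of 30 in GSC1, which allows up to 10%. The highest cells had 40.6 RPM in GSCLC4, 36.6 RPM in GSCLC1, 0.73 RPM in GSC2 and 0.49 RPM in GSC1. In GSCLC1 the whole signal was that 1 cell. The types were not compared for Fgfr2, which fell under the filter of the test over lines. Fgfr4 (chr13:55152818-55168759, Entrez 14186), the FGF receptor of the liver and bile acid control, was read in 1 GSCLC4 cell at 2.58 RPM and 1 GSC1 cell at 3.77 RPM, and in no cell of GSCLC1 or GSC2.

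Egfr (chr11:16752203-16913907, Entrez 13649), the receptor of the EGF added to the medium, was nearly absent from these libraries. Any Egfr was read in 6 cells, namely 4 in GSCLC4, 1 in GSCLC1, 0 in GSC2 and 1 in GSC1. The highest GSCLC4 cells had 30.0 and 20.1 RPM, the GSCLC1 cell had 0.36 RPM and the GSC1 cell had 103.8 RPM. That GSC1 cell carried 2774 RPM of Dazl and 1037 RPM of Ddx4, both germ cell RNA-binding protein genes, and 481 RPM of the fibroblast and feeder marker sum, against a GSC1 median of 248 RPM. At 0 of 24 GSC2 cells the counts allow a share with any Egfr of up to 12.5%.

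Erbb3 (chr10:128567523-128589635, Entrez 13867), the neuregulin receptor, was the EGF receptor family member with the highest RPM in GSCLC4, GSC2 and GSC1, but not in GSCLC1. Its lowest, median and highest cells were at 0, 40.5 and 212 RPM in GSCLC4, 0, 0 and 113.1 RPM in GSCLC1, 0, 11.7 and 295 RPM in GSC2, and 0, 52.9 and 143.5 RPM in GSC1. GSCLC1 stood apart from the other lines, with most of its cells at 0. The line means were 58.5 RPM in GSCLC4, 8.79 RPM in GSCLC1, 49.0 RPM in GSC2 and 45.1 RPM in GSC1. At 5 RPM or more there were 18 of 24 GSCLC4 cells (75%, exact 95% interval 53.3% to 90.2%), 5 of 30 GSCLC1 cells (16.7%, 5.64% to 34.7%), 13 of 24 GSC2 cells (54.2%, 32.8% to 74.4%) and 18 of 30 GSC1 cells (60%, 40.6% to 77.3%). The interval of GSCLC1 lay below those of GSCLC4 and GSC1 and overlapped that of GSC2. When every cell was thinned to the lowest estimated depth, the share with at least 1 Erbb3 read was 88.8% in GSCLC4, 27.9% in GSCLC1, 75.5% in GSC2 and 76.05% in GSC1.

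Erbb2 (chr11:98412484-98437716, Entrez 13866), the shared partner of the family, ran the other way in the GSCLC lines. Its mean was 9.32 RPM in GSCLC4, 20.3 RPM in GSCLC1, 12.8 RPM in GSC2 and 10.0 RPM in GSC1. Medians were 1.56 RPM in GSCLC4 and 0 RPM in the other 3 lines, and the highest cells had 56.6 RPM, 138.3 RPM, 140.6 RPM and 117.4 RPM, so the means rested on a minority of cells. Shares at 5 RPM were in another order than the means: 41.7% in GSCLC4, 23.3% in GSCLC1, 29.2% in GSC2 and 20% in GSC1, with overlapping intervals. At 20 RPM, however, the shares were 16.7%, 20%, 16.7% and 10% in the same order, with GSCLC1 highest as in the means. Among cells at 5 RPM or more the median Erbb2 level was 15.7 RPM in GSCLC4 and 104 RPM in GSCLC1, against 22.5 RPM in GSC2 and 41.7 RPM in GSC1. The positive cells of GSCLC1 were few but had a higher median than those of the other lines. Erbb2 and Erbb3 were both at 5 RPM or more in 8 cells of GSCLC4, 2 of GSCLC1, 3 of GSC2 and 4 of GSC1.

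Igf1r (chr7:67952257-68233668, Entrez 16001), which binds insulin-like growth factors and, more weakly, insulin, had the highest mean RPM of the 10 receptors in GSCLC1, GSC2 and GSC1, while in GSCLC4 it was close to Fgfr1. The lowest, median and highest cells had 1.27, 91.1 and 231 RPM in GSCLC4, 0.55, 82.9 and 375 RPM in GSCLC1, 0.47, 100.3 and 270 RPM in GSC2, and 0, 66.0 and 436 RPM in GSC1. The only cell of any line without Igf1r was the GSC1 cell high in fibroblast and feeder markers. Line means were 90.6 RPM in GSCLC4, 117.6 RPM in GSCLC1, 117.5 RPM in GSC2 and 86.0 RPM in GSC1, which placed 1 line of each type at each level. Shares at 5 RPM were 91.7%, 90%, 91.7% and 76.7% in the same order of lines, and the GSC1 share was 79.3% without that cell. Insr (chr8:3150922-3279649, Entrez 16337), the closely related insulin receptor, was far lower, with means of 7.27 RPM in GSCLC4, 0.045 RPM in GSCLC1, 0.39 RPM in GSC2 and 3.79 RPM in GSC1. It reached 5 RPM in 4, 0, 1 and 3 cells of these lines, and in GSCLC1 no cell exceeded 0.40 RPM. Some Igf1r and Insr values were not whole reads (91.6% and 87.0% of nonzero values were whole within 0.05 read), while all values of the other 8 receptors were.

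Pdgfra (chr5:75151322-75198206, Entrez 18595), a receptor typical of mesenchymal cells and of primitive endoderm, was patchy. It was at 5 RPM or more in 8 of 24 GSCLC4 cells (33.3%), 4 of 30 GSCLC1 cells (13.3%), 7 of 24 GSC2 cells (29.2%) and 6 of 30 GSC1 cells (20%). Line means were 9.06 RPM in GSCLC4, 2.10 RPM in GSCLC1, 44.05 RPM in GSC2 and 8.13 RPM in GSC1. The height of the positive cells set GSC2 apart more than their share, since 4 GSC2 cells exceeded 100 RPM, the highest at 338 RPM, while the highest cell of GSCLC4 had 72.2 RPM, that of GSCLC1 23.3 RPM and that of GSC1 91.6 RPM. The highest GSC2 cell supplied 31.9% of the GSC2 sum, and the mean was 31.3 RPM without it. Cells with Pdgfra carried germ cell markers, at a lower median than the other cells in GSC2 and at a higher one in the other lines. The median sum was 6281 RPM in Pdgfra cells and 5669 RPM in the other cells of GSCLC4, 6061 and 5953 RPM in GSCLC1, 4855 and 6048 RPM in GSC2, and 5854 and 5277 RPM in GSC1. For the fibroblast and feeder sum the medians in Pdgfra cells and other cells were 358 and 301 RPM in GSCLC4, 108.1 and 198 RPM in GSCLC1, 288 and 303 RPM in GSC2, and 325 and 242 RPM in GSC1. Of the fibroblast markers, Lum and Col3a1 were at 0 in every Pdgfra cell, whereas others were read in some of them. Postn reached 206.6 RPM in a Pdgfra cell of GSCLC4, Dcn 32.9 RPM in 1 of GSC1, and Pdgfrb 32.5 RPM in 1 of GSCLC4, 8.69 RPM in 1 of GSC2 and 39.2 RPM in 1 of GSC1. Col1a1 averaged 16.9 RPM in those of GSCLC4, 16.1 RPM in GSCLC1, 13.9 RPM in GSC2 and 47.4 RPM in GSC1. These single markers were not compared with cells without Pdgfra. Of the 16 markers, 2 were at 0 in all cells of GSCLC4, 3 in GSCLC1, 5 in GSC2 and 1 in GSC1. The zeros are thus not shown to be particular to Pdgfra cells. The part of fibroblast marker RNA in the Pdgfra level was not tested.

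**Figure D2:**
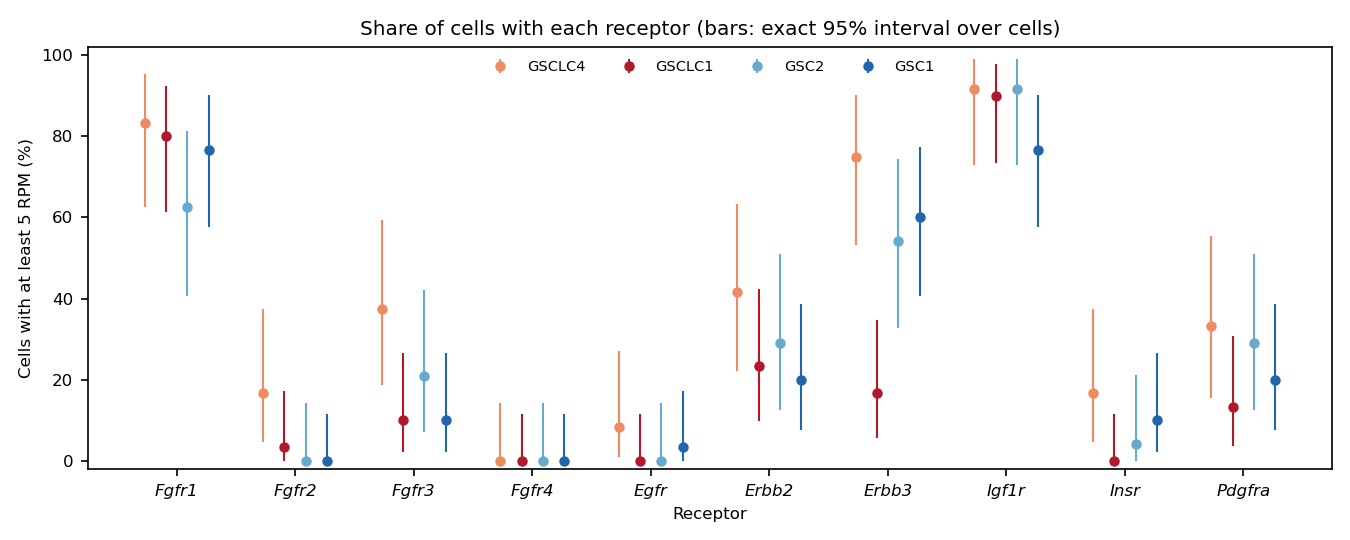
Share of cells at 5 RPM or more (vertical axis, percent of the cells of a line) for each receptor, by line from left to right GSCLC4, GSCLC1, GSC2 and GSC1. Points are the shares and bars the exact 95% intervals over cells, which for 0 cells reach 14.2% in lines of 24 cells and 11.6% in lines of 30, above the 3-cell limits of 12.5% and 10% in the text; for Erbb3 the GSCLC1 share (16.7%) was the lowest of the 4 lines, and for Igf1r every share was at least 76.7%.

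Set against 44 other receptor tyrosine kinases in the same table, the 10 receptors held ranks from 3 to 41 of 54 by the mean of the 4 line means. Igf1r (102.9 RPM) was the third, Fgfr1 (74.8 RPM) the fourth and Erbb3 (40.4 RPM) the sixth. Ryk, a WNT-binding receptor with an inactive kinase domain, led at 179 RPM, and Ret, the GDNF receptor, followed at 119.2 RPM. Pdgfra (15.8 RPM) and Erbb2 (13.1 RPM) were in places 9 and 12, on either side of Kit (15.04 RPM), the receptor of differentiating spermatogonia. The place of Pdgfra came from GSC2, and in the other 3 lines its mean was below that of Erbb2. Fgfr3 (4.19 RPM), Insr (2.87 RPM), Egfr (1.44 RPM), Fgfr2 (1.25 RPM) and Fgfr4 came at 23, 27, 33, 34 and 41. Together the 10 receptors made up 34.7% of the summed RPM of all 54 in GSCLC4, 30.3% in GSCLC1, 34.3% in GSC2 and 28.4% in GSC1. RPM from 3′ ends also reflects how well each 3′ end was captured, so small steps in this order between genes carry little weight.

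**Figure D3:**
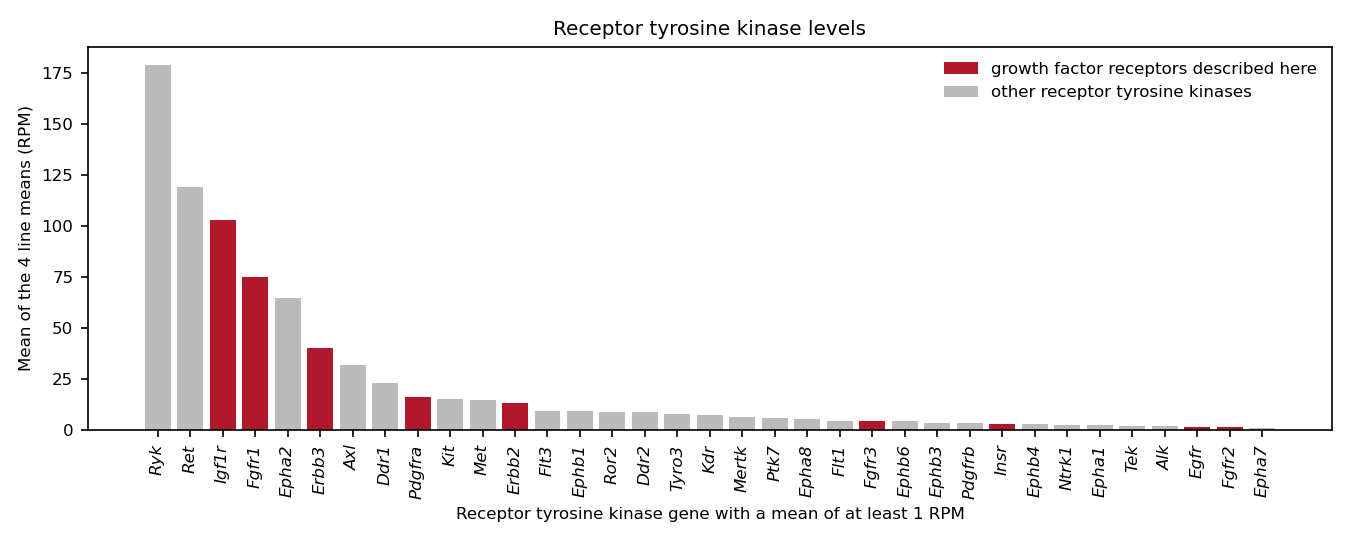
Mean of the 4 line means in RPM for each receptor tyrosine kinase gene with at least 1 RPM, in falling order. Red bars are the growth factor receptors described here and grey bars the others; Igf1r and Fgfr1 follow Ryk and Ret, and the levels drop quickly after Erbb3.

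The main comparison of the design set the GSCLC lines beside the GSC lines. Levels were compared as log2(line mean RPM + 1) with limma over all genes at 5 RPM or more in at least 2 lines, and p-values were adjusted by Benjamini-Hochberg over the 10526 genes tested. With 2 lines of each type, p-values measured only the spread between these cultures, and the variance estimate of each gene also drew on the other tested genes. On this scale the differences of low genes are understated. Of the 10 receptors 5 were tested, and Fgfr2, Fgfr3, Fgfr4, Egfr and Insr fell under the filter. None of the 5 passed the adjusted threshold of 0.05, where 0.076% of all tested genes did (8 genes; 0.057% were higher and 0.019% lower in GSCLC lines). At an unadjusted p under 0.05 there was 1 of 5, Pdgfra, which was lower in GSCLC lines, against 8.83% of all tested genes (3.8% lower). For Pdgfra this did not hold in every alternative setting.

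Pdgfra averaged 5.58 ± 4.92 RPM in GSCLC lines and 26.1 ± 25.4 RPM in GSC lines (SD, n = 2 lines each), a log2 difference of -1.86 ± 0.82 (SE; limma adjusted p = 0.557). The GSC1 mean (8.13 RPM) was below that of GSCLC4 (9.06 RPM), and the log2 difference was -0.71 without GSC2, -1.01 without GSCLC1 and -3.01 without GSC1. Erbb3 averaged 33.7 ± 35.2 RPM in GSCLC lines and 47.1 ± 2.78 RPM in GSC lines (log2 difference -0.99 ± 0.64, limma adjusted p = 0.698), and its direction was set by GSCLC1, since without that line the log2 difference was 0.31. Fgfr1 averaged 85.2 ± 12.3 RPM and 64.4 ± 11.2 RPM in the GSCLC and GSC lines, a log2 difference of 0.40 ± 0.28 (limma adjusted p = 0.731). It alone among the 5 had line means that did not overlap between the types, as did 39.3% of all tested genes (22% with both GSCLC lines above and 17.3% with both below). Erbb2 averaged 14.8 ± 7.76 RPM in GSCLC lines and 11.4 ± 1.96 RPM in GSC lines (log2 difference 0.26 ± 0.58, limma adjusted p = 0.942), and the log2 difference was -0.26 without GSCLC1 and 0.79 without GSCLC4. Igf1r had 104 ± 19.1 RPM and 101.8 ± 22.3 RPM in the GSCLC and GSC lines, with a log2 difference of 0.037 ± 0.27 (limma adjusted p = 0.985). The median log2 difference of the 5 was 0.037, beside 0.039 for all tested genes.

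Lines of the same type also differed from each other. GSCLC4 over GSCLC1, with 1 line on each side and so no test, was past 2-fold for 3 of the 5 receptors, where 14.6% of all tested genes were (9.35% higher and 5.23% lower in GSCLC4). Erbb3 was higher in GSCLC4 by 2.60 and Pdgfra by 1.70 on the log2 scale, and Erbb2 was lower (-1.05). Of the 5, only Pdgfra was past 2-fold for GSC2 over GSC1 (log2 2.30). Of all tested genes 14.6% were (7.23% higher and 7.33% lower in GSC2). Among the receptors under the filter, at low means, GSCLC4 over GSCLC1 was past 2-fold for Insr (2.98), Egfr (1.71) and Fgfr2 (1.09). In the same way GSC2 over GSC1 was past 2-fold for Egfr (-2.16), Insr (-1.79) and Fgfr3 (1.19). These values rest on few cells: all Egfr of GSC1 and all Fgfr2 of GSCLC1 were read in 1 cell each. The share of all genes under the filter that were past 2-fold was not computed. Fgfr1 and Igf1r stayed within 2-fold in both pairs, at 0.29 and -0.37 for GSCLC4 over GSCLC1 and 0.35 and 0.45 for GSC2 over GSC1. With a pseudocount of 10 RPM only Erbb3 stayed past 2-fold between the GSCLC lines, at 1.87.

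The serial numbers in the cell titles put the GSC1 cells in a later run of 17 cells (129 to 150) and an earlier run of 13 cells (65 to 80), named here by number only. Fgfr1 averaged 75.3 RPM in the later run and 31.8 RPM in the earlier, whereas Igf1r averaged 72.5 RPM and 104 RPM in them. Erbb3 had 52.7 RPM and 35.1 RPM, Erbb2 12.7 RPM and 6.58 RPM, and Pdgfra 4.71 RPM and 12.6 RPM in the later and earlier runs. Within GSC1 the receptors thus differed in both directions between the runs. GSC2 over GSC1 for Fgfr1 was 1.16 on the log2 scale with the earlier run alone and -0.06 with the later run alone, so that value depended on which run was used. Each of the other lines filled a run of serial numbers of its own, and no run held cells of different lines. Differences between lines could therefore not be told apart from any that go with the serial numbers. This holds for Erbb3 in GSCLC1 and for Pdgfra in GSC2, and the part of the serial number in them was not tested. The sources used here do not say what the serial numbers stand for.

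Few of the 10 receptors reached 5 RPM in the same cell. At 5 RPM or more a cell had on average 4.04 ± 1.37 receptors in GSCLC4 (SD over 24 cells), 2.37 ± 1.13 in GSCLC1 (30 cells), 2.92 ± 1.18 in GSC2 (24 cells) and 2.77 ± 1.19 in GSC1 (30 cells). GSCLC4 was the highest line and GSCLC1 the lowest, and the GSC lines lay between them. The GSCLC lines averaged 3.20 ± 1.18 and the GSC lines 2.84 ± 0.11 (SD, n = 2 lines each), and this difference of 0.36 gave p = 1 (exact permutation test, two-sided, which with these lines cannot go below 0.333). In GSCLC4 the most frequent number was 5 receptors, in 9 of 24 cells, while no GSCLC1 cell had more than 4. The number of genes at 5 RPM or more was also highest in GSCLC4, while its order over the other lines differed from that of the receptor count: its line medians were 7454.5 in GSCLC4, 6240.5 in GSCLC1, 6503.5 in GSC2 and 6130.5 in GSC1. Of the other 44 receptor tyrosine kinases a cell carried on average 7.79, 6.37, 7.25 and 6.20 in the same order of lines, again most in GSCLC4. The part of the gene number in the receptor count was not tested. Igf1r and Fgfr1 were together at 5 RPM or more in 18 of 24 GSCLC4 cells, 22 of 30 GSCLC1 cells, 13 of 24 GSC2 cells and 17 of 30 GSC1 cells. Neither reached it in 1 GSCLC1 cell and 1 GSC1 cell, so nearly every cell had at least 1 of the 2.

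**Figure D4:**
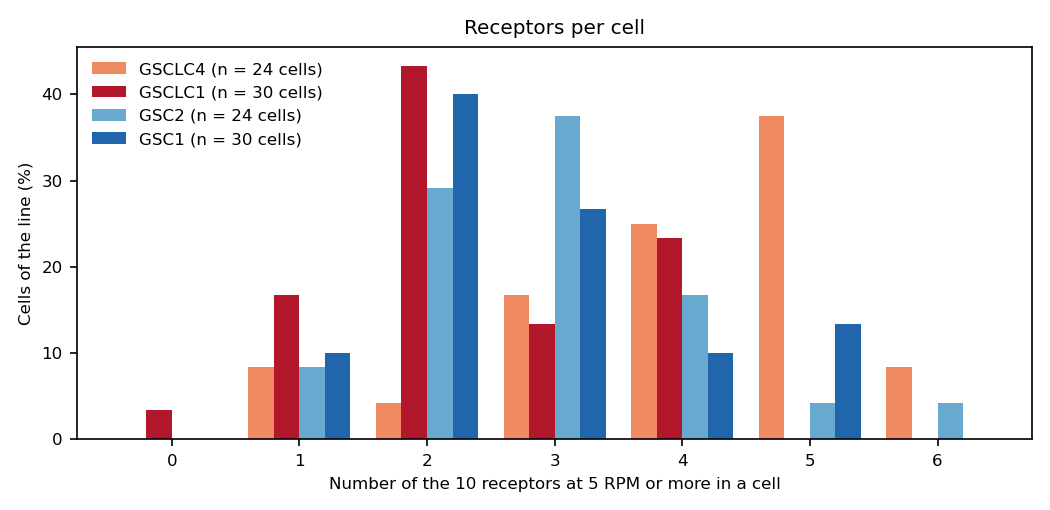
Percent of the cells of each line (vertical axis) by the number of the 10 receptors at 5 RPM or more in a cell (horizontal axis). Bars from left to right at each number are GSCLC4, GSCLC1, GSC2 and GSC1; GSCLC4 peaks at 5 receptors and GSCLC1 at 2.

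Co-expression among the 6 receptors at 5 RPM or more in at least 20 cells was weak. Spearman's rho over the cells of a line ran from -0.40 to 0.46 for their 15 pairs, with a median of 0.086 over the 4 lines. None of these values exceeded 0.5. Counted once for each pair and line, 10 exceeded 0.3, with 3 of 15 in GSCLC4, 3 in GSCLC1, 2 in GSC2 and 2 in GSC1. The share of all gene pairs past 0.3 was not computed. All rho values are descriptions over cells that share a culture and, within a line, a range of depths. Only 2 pairs had a positive rho in all 4 lines, Fgfr3 with Erbb3 and Erbb3 with Pdgfra. The share of all gene pairs that do so was not computed.

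For Fgfr3 and Erbb3 rho was 0.21 in GSCLC4, 0.46 in GSCLC1, 0.36 in GSC2 and 0.34 in GSC1. Among all tested genes 16.9%, 1.25%, 4.93% and 4.07% had a larger rho with Fgfr3 in these lines. Of the 20 cells with 5 RPM or more of Fgfr3, 18 also had Erbb3 at that level. They were 8 of 9 in GSCLC4, 2 of 3 in GSCLC1, 5 of 5 in GSC2 and 3 of 3 in GSC1, against 66.7%, 11.1%, 42.1% and 55.6% of the other cells of these lines. For Erbb3 and Pdgfra rho was 0.37 in GSCLC4 and 0.054 in GSCLC1, and 0.44 in GSC2 and 0.049 in GSC1, so it was near 0 in 1 line of each type. Within GSC1 it was -0.45 in the earlier run and 0.40 in the later. Pearson's r of log2(RPM + 1) for this pair was 0.36 in GSCLC4, -0.14 in GSCLC1, 0.29 in GSC2 and -0.19 in GSC1. The known partners Erbb2 and Erbb3 had 0.27 in GSCLC4, 0.17 in GSCLC1, -0.11 in GSC2 and 0.22 in GSC1. Fgfr1 and Igf1r, the most widespread pair, had -0.29 in GSCLC4, -0.22 in GSCLC1, 0.069 in GSC2 and -0.21 in GSC1.

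**Figure D5:**
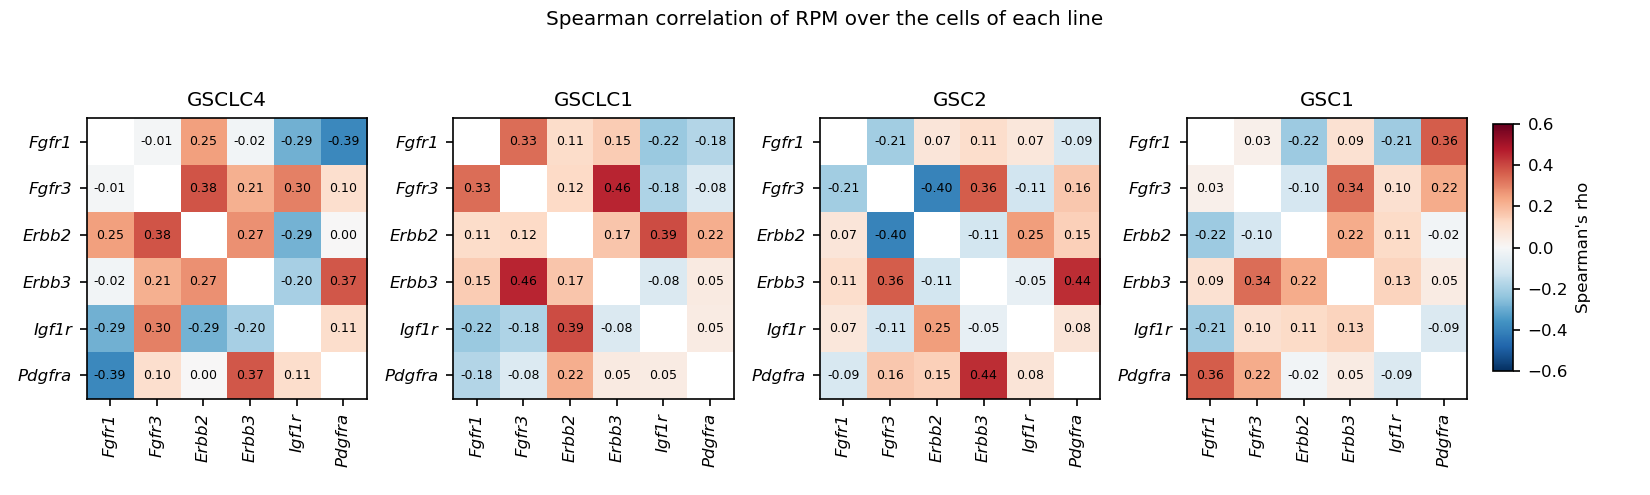
Spearman's rho of RPM over the cells of each line for pairs of the 6 receptors at 5 RPM or more in at least 20 cells, with GSCLC4, GSCLC1, GSC2 and GSC1 from left to right. Red is positive and blue negative; the pair of Fgfr3 and Erbb3 is positive in every line, between 0.21 and 0.46.

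The genes whose level over all cells was most like that of the 3 most widespread receptors were found by Pearson's r of log2(RPM + 1) centred within each line, among 6990 genes averaging 20 RPM or more. Igf1r was most like Wdfy3 (0.46), which encodes an autophagy scaffold, then Suds3 (0.44), a SIN3 corepressor subunit, and Nars2 (0.44), the mitochondrial asparaginyl-tRNA synthetase. Erbb3 was most like Prkd1 (0.41), a protein kinase, Wdr76 (0.41) and Puf60 (0.40), a splicing factor. Fgfr1 was most like Dom3z (0.35), Rpl36al (0.35), which encodes a ribosomal protein, and Mrpl2 (0.34), which encodes a mitochondrial ribosomal protein. The 99.9th percentile over all genes compared was 0.39 for Igf1r, 0.36 for Erbb3 and 0.31 for Fgfr1. As the 3 highest of 6990 genes, the neighbours had to lie above it, and whether they stand out was not tested.

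Ligands for the receptors were mostly low in these cells. Of 21 genes for FGF ligands and co-receptors 3 passed the filter and 0 were called, with a median log2 difference of -0.53 (GSCLC minus GSC; -0.39 without Fgfrl1) beside 0.039 for all tested genes. Fgfrl1, Egf, Pdgfc, Flt3 and Mertk reached 5 RPM only in the lines of the type where they were higher, so that the filter itself favoured a difference, and they are given as levels without a test. Fgf9, a ligand of testis development, averaged 10.8 ± 6.83 RPM in GSCLC lines and 12.8 ± 7.09 RPM in GSC lines (SD, n = 2 each, as in the rest of this account of pathway genes). Fgf18 averaged 4.57 ± 1.47 RPM and 6.96 ± 1.17 RPM, and Fgfrl1, an FGF receptor without a kinase domain, 3.95 ± 1.11 RPM and 9.71 ± 2.73 RPM in the GSCLC and GSC lines. Among 12 genes for EGF family ligands and Erbb4, 2 passed the filter, Egf and Hbegf, and 0 were called. Egf itself averaged 2.50 ± 2.73 RPM in GSCLC lines and 9.76 ± 2.41 RPM in GSC lines and was at 5 RPM or more in 7 cells. Hbegf, a membrane-shed EGF receptor ligand, averaged 9.43 ± 5.56 RPM and 11.4 ± 5.03 RPM in the GSCLC and GSC lines. Areg, under the filter, averaged 0.51 and 0.69 RPM in them.

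Insulin-like growth factor genes were better represented, with 7 of 13 tested and 0 called (3 positive and 4 negative log2 differences, median -0.071). Igf2, the fetal ligand of Igf1r, averaged 66.3 ± 0.48 RPM in GSCLC lines and 59.6 ± 1.03 RPM in GSC lines and was at 5 RPM or more in 71 cells. Igf2r, which clears IGF2, averaged 27.4 ± 5.33 RPM and 33.5 ± 1.56 RPM in the GSCLC and GSC lines. The binding protein genes Igfbp2 (19.3 ± 4.07 and 14.7 ± 1.26 RPM in GSCLC and GSC lines) and Igfbp5 (26.0 ± 25.8 and 17.0 ± 8.77 RPM) had positive log2 differences that did not pass, and Igfbp7 (5.26 ± 1.91 and 15.3 ± 15.2 RPM) a negative one. Igfbp7 had 3.91 RPM in GSCLC4, 6.62 RPM in GSCLC1, 4.53 RPM in GSC2 and 26.1 RPM in GSC1, so its negative difference came from GSC1. PDGF genes had 3 of 5 tested and 0 called. Apart from Pdgfc both tested genes had negative log2 differences, 1 of them (Pdgfa) at an unadjusted p under 0.05. Of all tested genes without those that, like Pdgfc, reached 5 RPM in the lines of 1 type only, 7.62% did so. Pdgfb, which encodes a ligand of both PDGF receptors, was at 5 RPM or more in 104 cells, with 99.9 ± 20.3 RPM in GSCLC lines and 109.3 ± 0.56 RPM in GSC lines. Pdgfa, which binds PDGFRA, averaged 12.4 ± 0.61 RPM in GSCLC lines and 27.2 ± 7.13 RPM in GSC lines (log2 difference -1.05 ± 0.47, limma adjusted p = 0.559). Pdgfc, also a PDGFRA ligand, averaged 9.01 ± 3.90 RPM in GSCLC lines and 1.75 ± 0.95 RPM in GSC lines, from 6 cells at 5 RPM or more.

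Adaptors, which bind the phosphorylated receptors, and negative regulators, which remove or dephosphorylate them, were examined next. Of 29 adaptor and docking protein genes 17 were tested and 0 called, with 7 positive and 10 negative log2 differences and a median of -0.10. The adaptor genes Nck1, Crkl and Crk averaged 200 ± 27.7, 105.7 ± 12.7 and 91.5 ± 7.78 RPM in GSCLC lines and 160.9 ± 12.05, 100 ± 15.4 and 103 ± 19.3 RPM in GSC lines. Sos2, a RAS exchange factor, averaged 10.8 ± 5.90 RPM in GSCLC lines and 25.1 ± 0.29 RPM in GSC lines (log2 difference -1.24 ± 0.53, limma adjusted p = 0.547). Grb10, an imprinted adaptor that restrains insulin receptor signalling, had 44.1 RPM in GSCLC4 and 5.14 RPM in GSCLC1, against 3.41 RPM in GSC2 and 6.32 RPM in GSC1, so its log2 difference of 1.55 ± 0.85 (limma adjusted p = 0.639) came from GSCLC4. Of 15 negative regulators 13 were tested and 0 called (9 positive and 4 negative, median 0.095). Ptprf, Ptpn12 and Usp8, which encode phosphatases and a deubiquitinase, averaged 187 ± 25.6, 178 ± 62.9 and 152 ± 3.15 RPM in GSCLC lines and 194 ± 7.74, 161.4 ± 3.19 and 152.8 ± 47.0 RPM in GSC lines. Lrig1, which restrains the EGF receptor family, averaged 19.6 ± 10.2 RPM in GSCLC lines and 7.61 ± 0.77 RPM in GSC lines (log2 difference 1.17 ± 0.59, limma adjusted p = 0.601), and Sh3kbp1, an adaptor of receptor endocytosis, 13.8 ± 4.91 RPM and 6.31 ± 0.81 RPM.

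Other receptors gave a similar picture. Of the 44 other receptor tyrosine kinases 16 were tested and 0 called. Apart from Flt3 and Mertk there were 5 positive and 9 negative log2 differences (median -0.31), and 2 of these 14 were at an unadjusted p under 0.05. Without all genes that reached 5 RPM in the lines of 1 type only, 10167 tested genes remained. Of these 5445 were positive and 7.62% were at an unadjusted p under 0.05. Flt3, a cytokine receptor of blood progenitors, had 27.8 RPM in GSCLC4 and 8.28 RPM in GSCLC1, against 0.58 RPM in GSC2 and 0.32 RPM in GSC1. Mertk, a receptor for apoptotic cells, averaged 1.66 ± 2.33 RPM in GSCLC lines and 10.8 ± 2.94 RPM in GSC lines. Ryk averaged 158.9 ± 17.8 RPM in GSCLC lines and 199 ± 5.10 RPM in GSC lines, and Epha2, an ephrin receptor, 54.9 ± 11.4 RPM and 74.8 ± 17.6 RPM. The 4 receptor genes for the added GDNF and LIF were all tested and 0 were called (3 positive and 1 negative log2 difference, median 0.28). Gfra1 averaged 260 ± 8.98 RPM in GSCLC lines and 220 ± 22.8 RPM in GSC lines, and Ret 132.9 RPM and 105.5 RPM (log2 difference 0.33 ± 0.25, SE). Lifr averaged 27.7 ± 6.55 RPM in GSCLC lines and 44.8 ± 9.75 RPM in GSC lines, and its partner Il6st 52.1 ± 9.07 RPM and 36.4 ± 13.4 RPM.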

How the data were processed

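The authors deposited 1 table of expression signal per gene and cell in RPM for the cells of 4 lines, with 26218 gene rows and 92 spike-in rows. The spike-ins are not part of the total that the genes are scaled to, have 6440 empty entries and were left out. The submitters' processing notes name the mouse build mm10 and the tools TopHat 1.4.1, Cufflinks 2.2.0 and cutadapt 1.3, and do not say how multiply mapping reads were treated. The worth of 1 read was estimated in each cell from its low values, which gave a median depth of 3.45 M reads. In a cell 85.7% to 92.4% of the values came out as whole reads (tolerance 0.05 read), too few for a count model. No cells were identical, no filter on cells was applied, and doublets were not called.

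Cells were grouped by the line in their titles. Line means of the deposited RPM were tested as log2(mean + 1) with limma 3.58.1 (lmFit and eBayes with trend) in R 4.3.3, for genes with at least 5 RPM in at least 2 lines, with Benjamini-Hochberg adjustment at 0.05. The script was tested on simulated data. Shares have exact Clopper-Pearson 95% intervals (scipy 1.17.1), which cover counting of cells only, and an upper limit of 3 cells of the line where no cell was found. Lines within a type were compared at a 2-fold difference, with no test. Alternatives covered the pseudocount, filter, summary over cells, scaling, variance trend, left-out lines and cells, the runs of GSC1 and the level for shares. Positions are RefSeq's on GRCm38.p6 (the mm10 assembly), by Entrez identifier.

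All 10 receptors were named. Genes that passed the filter only through the type where they are higher got no test in the text, a choice made after their values were seen. Of each pathway list the text names the 2 tested genes with the largest absolute log2 difference and the 3 genes with the highest mean RPM, and for receptors in at least 50% of cells the 3 most similar genes. The receptors and the lists, which come from textbook knowledge, were chosen with earlier results of these data known.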

Additional observations from a re-analysis of the deposited data

How the results depend on the processing

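No receptor passed the adjusted threshold as reported or in any of the 14 alternatives (limma). Adjusted p ran from 0.449 to 0.902 for Pdgfra (log2 -3.01 to -0.50), from 0.223 to 0.879 for Erbb3 (-2.29 to 0.31), from 0.633 to 0.955 for Fgfr1 (0.20 to 0.91), from 0.88 to 0.99 for Erbb2 (-0.26 to 0.79) and from 0.897 to 0.996 for Igf1r (-0.19 to 0.32, and up to 0.26 with a line left out). The direction turned for Erbb2 (-0.26), Erbb3 (0.31) and Igf1r (-0.15) without GSCLC1, and for Igf1r without GSC1 (-0.19) and with the earlier GSC1 run alone (-0.095); Fgfr1 and Pdgfra kept theirs in every alternative that could be run. Pdgfra and Erbb2 could not be fitted at a filter of 20 RPM, which they do not pass. The unadjusted p of Pdgfra (limma), 0.043 as reported, was 0.115 without the variance trend, 0.209 without a filter and 0.326 with the mean of log values. It was 0.022 with the earlier GSC1 run alone and 0.159 with the later. With a pseudocount of 0.1 RPM it was 0.047, with 10 RPM 0.036 and with median-ratio scaling 0.043. Without the GSC1 cell high in fibroblast and feeder markers it was 0.039. A line left alone in its type was assumed to vary like the others.

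The count over all genes, 8 as reported, was 3 with a pseudocount of 0.1 RPM, 14 with 10 RPM, 23 with a filter of 20 RPM, 22 with the mean of log values, 3 with median-ratio scaling, and 4 and 2 with the earlier and the later GSC1 run alone. It was 0 in limma without a filter on low values (1388 genes at an unadjusted p under 0.05) and 0 without the variance trend (871 genes). Leaving out each line in turn gave 3 to 19. The cause was not tested. With the mean of log values the median log2 difference of all genes was 0.19, against 0.039 as reported. Of the 5 tested receptors, those past 2-fold numbered 1 in place of 3 for GSCLC4 over GSCLC1 with a pseudocount of 10 RPM. For GSC2 over GSC1 they numbered 2 in place of 1 with the earlier GSC1 run. The difference in receptors per cell was -0.475 without GSCLC4 and between -0.475 and 1.2 over all left-out lines. Of the alternative shares of cells 32 moved beyond the exact interval, and 12 of the alternative correlations moved by more than 1 standard error. No paired analysis was possible because the groups compared share no replicate numbers. The shares of Insr, Fgfr2 and Egfr rest on 8, 5 and 3 cells, which limits what they can show.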

Other observations

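The same GSC1 cell had the highest level of GSC1 for both Fgfr1 (366 RPM) and Igf1r (436 RPM). It held 6114 RPM of the germ cell marker sum and 218 RPM of the fibroblast and feeder marker sum, beside GSC1 medians of 5404 and 248 RPM. No other line had its highest Fgfr1 and Igf1r levels in the same cell.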
